A study of Mus musculus with 6 samples.

Results

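The proliferation genes of S phase and mitosis are 40 mouse genes that cells make when they copy their DNA and divide. They were taken by name from the 23337 genes of the deposited expression table, and all 40 were found there. By role, 15 were placed in S phase (10 in replication licensing and DNA synthesis, 3 in nucleotide supply and 2 transcription factors). The other 25 were placed in mitosis (8 cyclins and kinases, 3 of the anaphase-promoting complex and its targets, 8 chromosome and centromere proteins, and 6 spindle and cytokinesis proteins). The 2 transcription factors are E2f1 and Foxm1, and Foxm1 is counted with the S phase members though it is known as a factor of mitotic genes. The libraries came from endothelial cells sorted as CD31+ CD45- from spleens digested with collagenase. CD31 is a surface protein of endothelium and platelets, and CD45 is the common leukocyte antigen. There were 3 wild-type libraries (WT 1, WT 3 and WT 4) and 3 libraries of the genotype Stab1-/- (KO 2, KO 3 and KO 4), all labelled C57BL/6, with no treatment named in the labels. The product of Stab1 is stabilin-1 (Clever-1), which sinusoidal endothelium uses to take up waste molecules, and the study asked how it bears on contacts between vessels and lymphocytes in the spleen. The labels name no driver that would limit the loss of Stab1 to endothelium. Neither the age of the mice nor whether each library came from its own animal is stated, so p-values measure the spread between these libraries, which may be technical.

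Reads per gene, recovered from the deposited values, summed to 40415771 to 51674986 per library. Stab1 was at 21.6, 43.6 and 31.4 RPKM (reads per kilobase of gene, scaled to depth) in wild type and fell to 2.32, 2.62 and 2.49 RPKM in the knockout (log2 fold change -3.40, adjusted p = 7.15e-05). Endothelial markers were high in each library, with Pecam1, the gene of CD31, at 273 to 360 RPKM. Ptprc, the gene of CD45, was at 0.0259 to 0.11 RPKM. Fold changes are log2 values, knockout minus wild type, after 0.5 was added to each RPKM, so those of low genes are understated. A gene was called when limma gave an adjusted p under 0.05 over the 11035 genes that reached 1 RPKM in 3 or more libraries. Library values are given in the order WT 1, WT 3, WT 4 and KO 2, KO 3, KO 4, and each group mean has n = 3.

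A dividing cell licenses its replication origins in G1, copies DNA in S phase and separates the copies in mitosis, and most genes of these steps are known to be transcribed when they are needed. S phase genes are known as targets of E2F factors. Mitotic genes are known as targets of the MuvB complex with B-Myb and FOXM1, which acts through a cell cycle homology region (CHR) and CCAAT boxes near the start of the gene. Adult endothelium is known to be mostly quiescent.

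Promoters are shown as a description of the members, from reference sequence that is the same for all libraries. The members were grouped by known role. Whether promoter sequence bears on their levels in the libraries was not tested. RefSeq promoter windows (GRCm38.p6, 250 bases before to 50 after a start) matched 33 of the 40 members, all but Mcm4, Gmnn, Foxm1, Ccna2, Aurkb, Tpx2 and Kif20a. The words searched on both strands were TTTGAA for the CHR (TTCAAA in reverse), CCAAT for the CCAAT box (ATTGG in reverse), and TTTCCCGC, TTTGGCGC, TTTCGCGC and TTTGCCGC for E2F, with their reverse complements, and overlapping words were each counted. A CHR word lay in the windows of 15 of 21 mitotic members (71.4%), of 1 of 12 S phase members (8.33%) and of 20.2% of 27025 genes. An E2F word lay in those of 6 of 12 S phase members (50%), of 0 of 21 mitotic members and of 2.6% of all genes. CCAAT boxes were frequent in both, in 18 of 21 mitotic members (85.7%) and 8 of 12 S phase members (66.7%), against 41.1% of all genes. CHR and CCAAT box occurred together in 15 mitotic members, against 7.97% of all genes. The CCAAT shares of the members were the same without the 50 bases after the start. Those of CHR words in mitotic members and of E2F words in S phase members depended on the 50 bases after the start. In the 250 bases before it, 7 of 21 mitotic members (33.3%) held a CHR word, each with a CCAAT box, against 18.3% of all genes with a CHR word and 6.45% with both. An E2F word lay there in 4 of 12 S phase members (33.3%), against 2.16% of all genes. A match is a word in a window and shows no binding. The window of Pttg1 held none of these words, and it lies inside the span that RefSeq gives the gene. In the 5 stretches of 200 bases printed here 5′ to 3′, capitals mark CHR, CCAAT and E2F words. They lie before the annotated starts of Ccnb2 (chr9:70421555-70421754, minus strand), Cdc20 (chr4:118437355-118437554, minus strand) and Top2a (chr11:99024201-99024400, minus strand), mitotic genes with CHR and CCAAT words, and of Mcm6 (chr1:128359706-128359905, minus strand) and Mcm5 (chr8:75109268-75109467, plus strand), licensing genes with E2F words.
Ccnb2: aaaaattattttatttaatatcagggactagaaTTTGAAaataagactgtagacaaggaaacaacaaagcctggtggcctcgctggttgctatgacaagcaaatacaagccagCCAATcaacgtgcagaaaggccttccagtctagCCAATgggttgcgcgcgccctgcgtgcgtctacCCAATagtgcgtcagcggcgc
Cdc20: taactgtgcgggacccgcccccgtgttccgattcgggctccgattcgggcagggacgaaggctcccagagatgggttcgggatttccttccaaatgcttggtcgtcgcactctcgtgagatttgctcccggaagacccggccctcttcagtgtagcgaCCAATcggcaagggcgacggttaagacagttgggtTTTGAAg
Top2a: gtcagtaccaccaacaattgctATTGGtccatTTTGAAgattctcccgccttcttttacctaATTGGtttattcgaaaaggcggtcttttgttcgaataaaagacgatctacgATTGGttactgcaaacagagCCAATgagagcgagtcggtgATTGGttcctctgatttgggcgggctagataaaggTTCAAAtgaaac
Mcm6: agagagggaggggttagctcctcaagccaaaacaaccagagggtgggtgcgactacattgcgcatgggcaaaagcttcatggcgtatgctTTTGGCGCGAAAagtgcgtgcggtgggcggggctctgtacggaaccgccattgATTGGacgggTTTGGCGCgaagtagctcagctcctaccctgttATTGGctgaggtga
Mcm5: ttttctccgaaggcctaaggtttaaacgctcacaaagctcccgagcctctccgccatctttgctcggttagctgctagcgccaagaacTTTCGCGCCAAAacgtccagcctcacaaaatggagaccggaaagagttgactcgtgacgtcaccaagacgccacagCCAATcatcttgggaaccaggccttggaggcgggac
In Mcm6 and Mcm5 the longer runs of capitals are E2F words of both strands that overlap. The full window of Ccnb2 held 2 CHR words, and only the 1 in the 250 bases before the start is printed.

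Between the genotypes, 1 member was called. Pttg1, the gene of securin, fell in the knockout, and 0 members were called higher. The 34 members that passed the filter on low values are set beside all genes tested, of which 1.94% were called, 1.27% lower and 0.671% higher. Cdc6, Foxm1, Bub1, Mki67, Cenpe and Cenpf were too low to be tested, and with no filter, which let all 40 be tested, Pttg1 was again the 1 member called, against 0.26% of all genes called lower. At an unadjusted p under 0.05 in limma there were 3 members (Pttg1, Mcm3 and Kif11), against 15.7% of all genes. The fold change was negative for 27 of the 34, against 45.7% of all genes, and its median was -0.24, against 0.03 over all genes. With limma's library quality weights, in contrast, it was negative for 8 of the 34 and the median was 0.21, while 5061 of all 11035 genes were negative. Among the 34 tested members, the wild-type and knockout values did not overlap for Pttg1, which was lower, and for E2f1, which was higher. Of all genes tested, 9.57% did not overlap and were lower and 10.7% did not overlap and were higher. The members passed the filter by their level, so these counts describe them and do not show that the list stands apart.

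**Figure D1:**
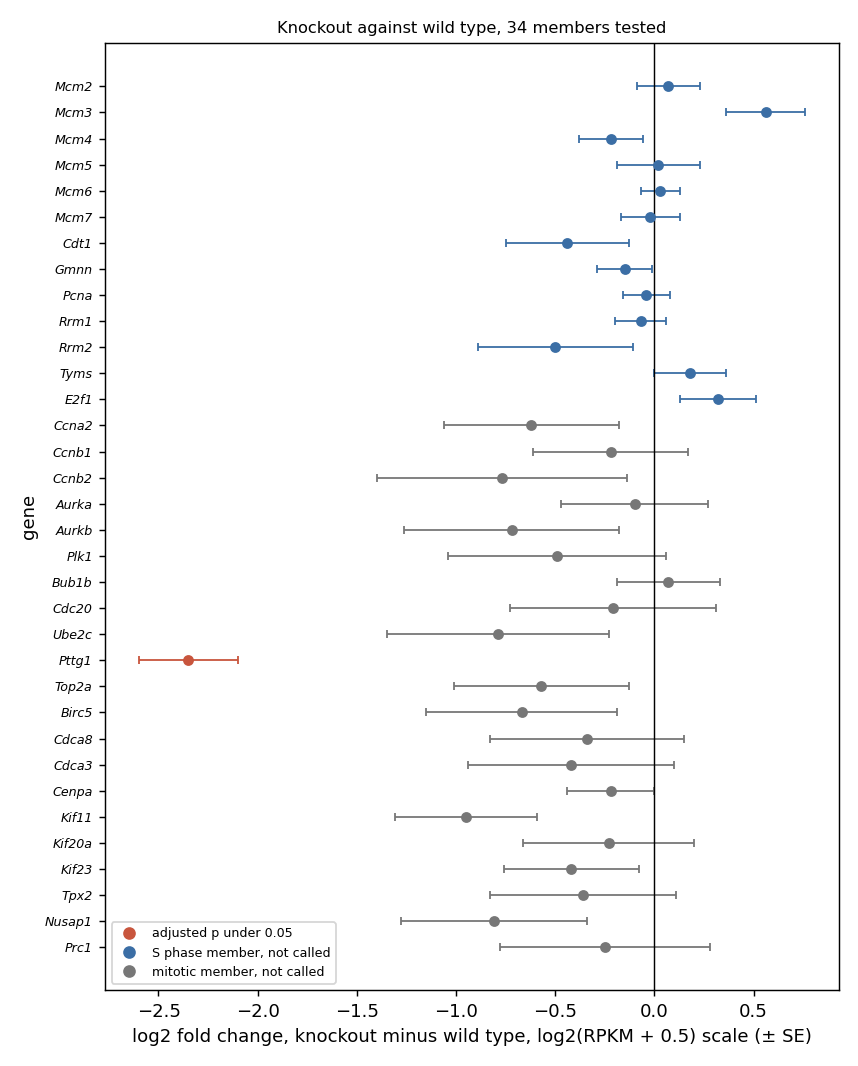
Log2 fold change of each tested member (x axis, knockout minus wild type on the log2(RPKM + 0.5) scale, bars ± SE from limma, 3 libraries per group), by gene on the y axis. Pttg1 sits at -2.35 and the other 33 members lie between -0.95 and 0.56 with bars that widen in the mitotic genes.

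Pttg1 (gene ID 30939, chromosome 11, 43420244 to 43427463, GRCm38) encodes securin, which holds back separase until the anaphase-promoting complex destroys it and sister chromatids can part. It was at 56.0, 45.4 and 95.1 RPKM in wild type and at 15.2, 10.4 and 10.5 RPKM in the knockout. These levels rest on 3990 to 7552 reads per library in wild type and on 743 to 1318 reads in the knockout. Each knockout library was below each wild-type library, and the spread was wide within wild type (65.5 ± 26.2, SD) and narrow in the knockout (12.0 ± 2.78, SD). Its log2 fold change was -2.35 ± 0.25 (SE; limma, adjusted p = 0.00177). Leaving out each library in turn gave -2.57 to -2.04 with adjusted p from 0.00155 to 0.0149. Exact permutation of the group means (20 assignments, two-sided) gave p = 0.1, and 3 against 3 libraries cannot give a smaller one. In the authors' deposited table the log2 fold change of Pttg1 was -2.39, with an adjusted p of 0.0104. In bulk libraries, fewer cells that make an RNA and less of it per cell cannot be told apart.

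Pttg1 was the most abundant mitotic member, with a mean of 38.8 RPKM over the 6 libraries, and the other 24 had means of 19.6 RPKM or less. Its order over libraries was its own among them: it was the only one of the 25 mitotic members that was highest in WT 4. Of the genes within 1 Mb of it, 5 were tested and 0 were called by limma (log2 fold changes from -0.53 to 0.32, adjusted p from 0.232 to 0.755). The nearest, Slu7, a splicing factor gene, was at 35.7, 32.8 and 29.8 RPKM in wild type and at 28.6, 25.1 and 37.3 RPKM in the knockout.

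**Figure D2:**
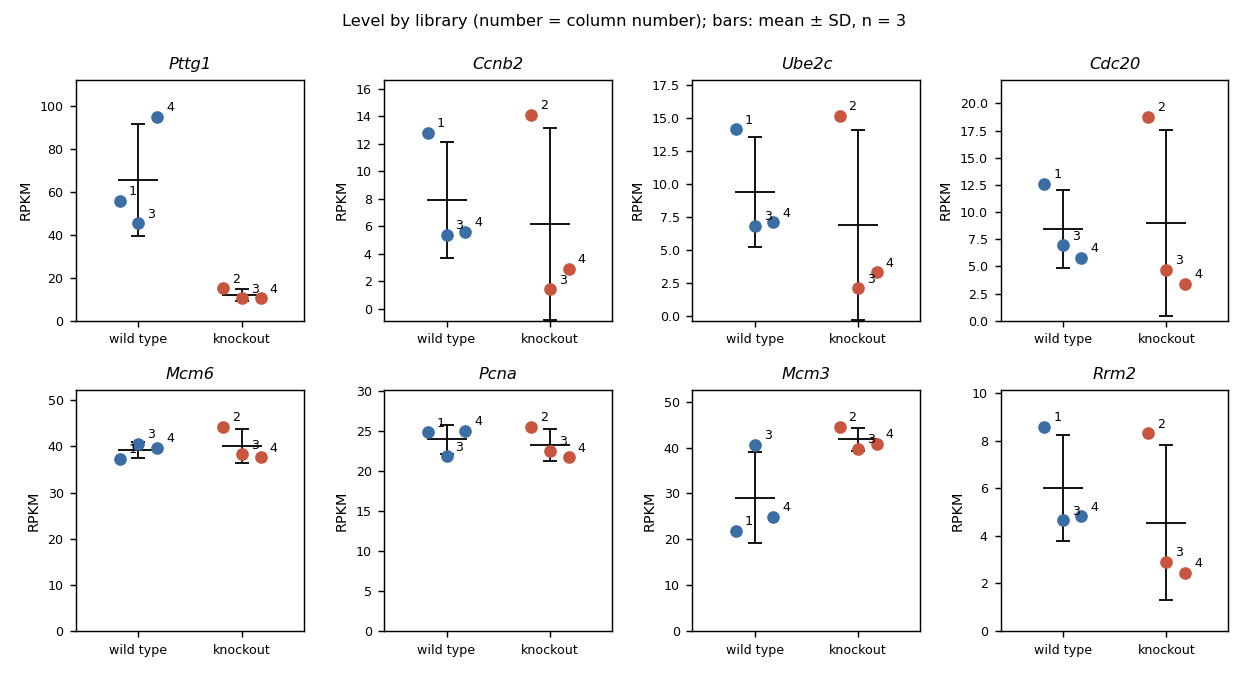
RPKM (y axis) of 8 members in each library (points, numbered as in the library names; blue wild type, red knockout; bars mean ± SD, n = 3). The groups separate for Pttg1, KO 2 and WT 1 stand above the rest for Ccnb2, Ube2c, Cdc20 and Rrm2, and Mcm6 and Pcna are level in all 6 libraries.

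The cofactors of the anaphase-promoting complex differed in pattern from Pttg1. Cdc20, the activator that presents securin to the complex, was at 12.6, 6.96 and 5.80 RPKM in wild type and at 18.8, 4.72 and 3.40 RPKM in the knockout. KO 2 held the highest value and KO 4 the lowest, so the groups overlapped (log2 fold change -0.21 ± 0.52 SE, adjusted p = 0.859). Ube2c, the enzyme that gives the complex ubiquitin, was at 14.2, 6.88 and 7.15 RPKM and at 15.2, 2.16 and 3.37 RPKM (log2 fold change -0.79 ± 0.56 SE, adjusted p = 0.516). Of the 22 further genes fixed as subunits and brakes of the complex, 22 were tested and 0 called in limma, with 3 at an unadjusted p under 0.05 and a median log2 fold change of 0.09. Those of smallest p were Mad1l1, a checkpoint gene (log2 fold change 0.39, adjusted p = 0.188), and Anapc2, a catalytic subunit gene (0.35, adjusted p = 0.257).

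Cyclins and kinases of mitosis showed the same split within the knockout. Ccnb2, a cyclin of the kinase Cdk1, was at 12.8, 5.39 and 5.61 RPKM in wild type and at 14.1, 1.43 and 2.92 RPKM in the knockout. The 9.89-fold distance between KO 2 and KO 3 spanned all wild-type values, and the difference between the genotypes was not called (log2 fold change -0.77 ± 0.63 SE, adjusted p = 0.57). Aurkb, the kinase of the chromosomal passenger complex, was at 3.61, 2.33 and 3.13 RPKM and at 5.10, 0.362 and 1.45 RPKM, which placed KO 2 at 14.1 times KO 3 (log2 fold change -0.72 ± 0.54 SE, adjusted p = 0.531). Aurka, the centrosomal kinase, was at 5.89, 2.89 and 2.71 RPKM and at 6.31, 2.04 and 2.78 RPKM (log2 fold change -0.10 ± 0.37 SE, adjusted p = 0.916). For Aurka the high values were those of KO 2 and WT 1, and the other 4 libraries lay close together. Ccna2, the cyclin of S phase and early mitosis, was at 5.93, 2.96 and 2.74 RPKM and at 5.04, 0.980 and 1.93 RPKM (log2 fold change -0.62 ± 0.44 SE, adjusted p = 0.516), here with WT 1 above KO 2. Plk1, a kinase of mitotic entry and exit, ranged from 0.473 RPKM in KO 3 to 5.18 RPKM in KO 2, and Ccnb1, the other B-type cyclin, from 0.569 to 2.57 RPKM in the same libraries. Bub1b, a checkpoint kinase relative, was the sole tested mitotic member with a positive fold change (0.07, adjusted p = 0.908). Bub1, a checkpoint kinase, had 0 reads in KO 3, where 3 reads would be 0.0136 RPKM, and was at 0.626 RPKM in KO 2.

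Chromosome and centromere genes were next. Cenpa, the centromeric histone H3 variant and the second most abundant mitotic member, varied least of the tested ones, at 27.9, 20.5 and 15.7 RPKM in wild type and 22.5, 16.7 and 14.7 RPKM in the knockout. Its groups overlapped (log2 fold change -0.22 ± 0.22 SE, adjusted p = 0.626). Cdca8, borealin of the chromosomal passenger complex, was at 7.23, 3.54 and 2.96 RPKM and at 8.26, 1.54 and 2.47 RPKM (log2 fold change -0.34 ± 0.49 SE, adjusted p = 0.753). Birc5, survivin of the same complex, was at 3.69, 1.66 and 1.98 RPKM and at 3.64, 0.438 and 0.925 RPKM (log2 fold change -0.67 ± 0.48 SE, adjusted p = 0.518). In both genes WT 1 and KO 2 were highest and KO 3 lowest, as in their partner Aurkb. Top2a, the DNA topoisomerase of chromosome condensation, ranged from 0.377 RPKM in KO 3 to 3.44 RPKM in KO 2, and Cdca3, a mitotic entry gene, from 1.37 RPKM in KO 4 to 8.18 RPKM in KO 2. The proliferation marker Mki67 was low in each library, from 0.043 RPKM (22 reads) in KO 3 to 0.609 RPKM (256 reads) in WT 1. Cenpe, a kinetochore motor gene that was not tested, was at 0.258 RPKM or more in wild type and at 0.224 RPKM or less in the knockout, and without the filter it had an adjusted p of 0.288. Cenpf, a kinetochore protein gene, was at 0.211 to 0.42 RPKM in wild type and at 0.00707 RPKM (4 reads) in KO 3.

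Genes of the spindle and of cytokinesis held the mitotic member of smallest p after Pttg1. Kif11, the motor that pushes spindle poles apart, was at 1.19, 1.4 and 0.790 RPKM in wild type and at 1.03, 0.0612 and 0.163 RPKM in the knockout. KO 3 and KO 4 were below each wild-type library and KO 2 was within their range. Its log2 fold change of -0.95 ± 0.36 (SE) had an adjusted p of 0.244. Prc1, which bundles microtubules at the midzone, was at 6.09, 3.40 and 3.21 RPKM and at 10.0, 1.37 and 2.36 RPKM (log2 fold change -0.25 ± 0.53 SE, adjusted p = 0.836). Kif20a, a motor of cytokinesis, was at 3.84, 1.97 and 2.28 RPKM and at 5.09, 1.01 and 1.69 RPKM (log2 fold change -0.23 ± 0.43 SE, adjusted p = 0.815). Both had KO 2 highest, WT 1 next and KO 3 lowest. Nusap1, a microtubule-binding protein gene (log2 fold change -0.81, adjusted p = 0.424), Kif23, a midzone motor gene (-0.42, adjusted p = 0.571), and Tpx2, the activator of Aurora A (-0.36, adjusted p = 0.731), completed the group. Exons of Kif20a shared 29.3% of their bases with Cdc23, and those of Ube2c 22.8% with Tnnc2, each on the other strand. Strand was not kept by the kit, so reads in shared bases cannot be assigned, and 9 of the 40 members share some exon bases with another gene in this way or on the same strand.

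**Figure D3:**
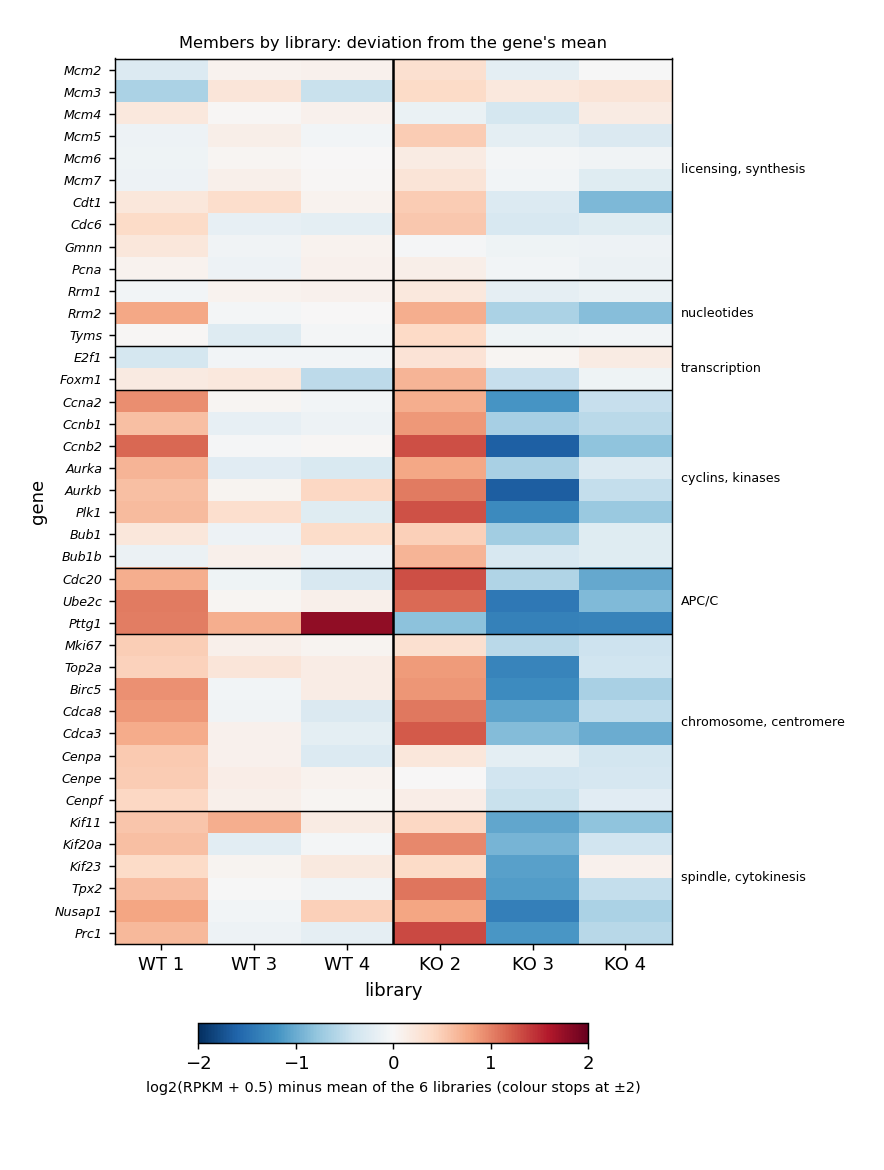
Deviation of log2(RPKM + 0.5) from the gene's mean over 6 libraries (colour, red above and blue below) for the 40 members (rows, grouped by role) in each library (columns, wild type left of the line). In most mitotic rows KO 2 and WT 1 are red and KO 3 is blue, Pttg1 alone is red in all wild-type and blue in all knockout columns, and most S phase rows are pale.

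Taken by library, the mitotic genes moved as a block that cut across the genotypes. KO 2 was the highest library for 16 of the 25, WT 1 for 7, and KO 3 was the lowest for 22. Over all genes tested, KO 2 was highest for 14.2% and KO 3 lowest for 19.4%. KO 2 and WT 1 were the 2 highest libraries for 20 of the 25, against 5.67% of all genes. KO 3 and KO 4 were both below each wild-type library for 22 of the 25, against 12.2% of all genes. Summed over the 24 mitotic members other than Pttg1, levels were 132, 78.4 and 71.5 RPKM in wild type and 151, 39.7 and 49.0 RPKM in the knockout. The group means of this sum, 93.9 ± 32.9 and 80.0 ± 61.9 RPKM (SD), lay within each other's spread. The ratio of KO 2 to KO 3 exceeded 2 for 23 of the 25 and had a median of 6.22 over the 24 with reads in KO 3. Median deviations from the gene means, on the log2(RPKM + 0.5) scale over the 20 tested members other than Pttg1, were 0.65, 0.02 and -0.06 in wild type and 0.93, -1.10 and -0.52 in the knockout. These genes are not independent of each other, since each library gives all of them.

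The comparison between genotypes depended on which libraries entered it. Without KO 2, 33 members were tested, 30 had a negative fold change (45.8% of all genes) and their median was -0.77. Then 19 members had an unadjusted p under 0.05 in limma, against 9.55% of all genes, and Pttg1 was still the 1 member called, against 0.403% of all genes called lower. The next were Ube2c (log2 fold change -1.55, adjusted p = 0.0804), Nusap1 (-1.40, adjusted p = 0.112) and Ccnb2 (-1.61, adjusted p = 0.119). Kif11 was not tested in this fit, since without KO 2 it did not reach 1 RPKM in 3 libraries. Without KO 3, in turn, 18 of 34 members had a negative fold change and the median was -0.003. Pttg1 was again the 1 member called, while 32 of 10931 genes were called lower. The median was -0.10 without KO 4, -0.08 without WT 1 (23 of 33 negative), -0.37 without WT 3 and -0.42 without WT 4. Pttg1 was the 1 member called lower each time, while the number of all genes called lower changed. That number was 347 of 10940 without KO 4 and 87 of 10881 without WT 1. It was 90 of 10874 without WT 3 and 39 of 10877 without WT 4. Nothing in the labels sets KO 2 or KO 3 apart from the other libraries.

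Markers of other cell types were set beside this pattern, from lists whose part in it was not tested. Of 23 erythroid markers, 10 were tested and 0 were called in limma, with 2 at an unadjusted p under 0.05, Car1 (39.2, 39.2 and 5.49 RPKM in wild type and 10.6, 1.36 and 0.51 RPKM in the knockout) and Cpox (log2 fold change -0.29, adjusted p = 0.304). Summed, the erythroid list was at 128 to 241 RPKM in wild type and at 100 to 195 RPKM in the knockout. It was highest in WT 1 and, within the knockout, in KO 2, and its median deviations were 0.67, 0.16 and -0.34 in wild type and 0.39, -0.35 and -0.79 in the knockout. KO 2 and WT 1 were the 2 highest libraries for 5 of the 10 tested, against 5.67% of all genes. KO 4, not KO 3, was lowest for 6 of them, against 8.99% of all genes. KO 2 was highest with KO 3 lowest for 0 of the 10, against 1.2% of all genes. Klf1, the erythroid transcription factor, was at 6.07, 3.30 and 1.76 RPKM in wild type and at 4.25, 0.898 and 0.463 RPKM in the knockout. Hba-a1 and Hba-a2, the alpha globin genes, were listed at 0 in each library. This does not show that their RNA was absent, since it is not stated how reads that match several genes were counted. Reticular cell and fibroblast markers (15, of which 11 were tested and Cxcl13 was called lower) summed to 143 to 335 RPKM in wild type, with WT 1 highest, and to 93.8 to 138 RPKM in the knockout, with KO 2 highest. Megakaryocyte and platelet markers (17, of which 16 were tested and Pf4 was called lower) summed to 209 to 425 RPKM in wild type, with WT 3 highest, and to 170 to 214 RPKM in the knockout.

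Lymphocyte genes were low. Of 14 B and plasma cell markers, 10 stayed under 1 RPKM in each library and Pax5 was listed at 0, while Xbp1, at 121 to 149 RPKM, made up most of the sums of 150 to 162 RPKM in wild type and 164 to 180 RPKM in the knockout. Of 14 T and NK cell markers, 12 stayed under 1 RPKM and Ncr1 was listed at 0, with sums of 7.99 to 9.04 and 7.25 to 9.43 RPKM that were mostly Lck. The 14 macrophage and monocyte markers summed to 387 to 440 RPKM in wild type and 243 to 343 RPKM in the knockout, of which Vcam1 and Fcer1g made up most, and Fcer1g was called lower. Of 11 haematopoietic progenitor markers, 8 were tested and 0 called in limma, also 0 at an unadjusted p under 0.05, with sums of 1010 to 1550 and 1090 to 1250 RPKM. Of 20 endothelial markers, 19 were tested, Clec4g was called lower, and the sums were 5890 to 6870 RPKM in wild type and 5650 to 6080 RPKM in the knockout.

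**Figure D4:**
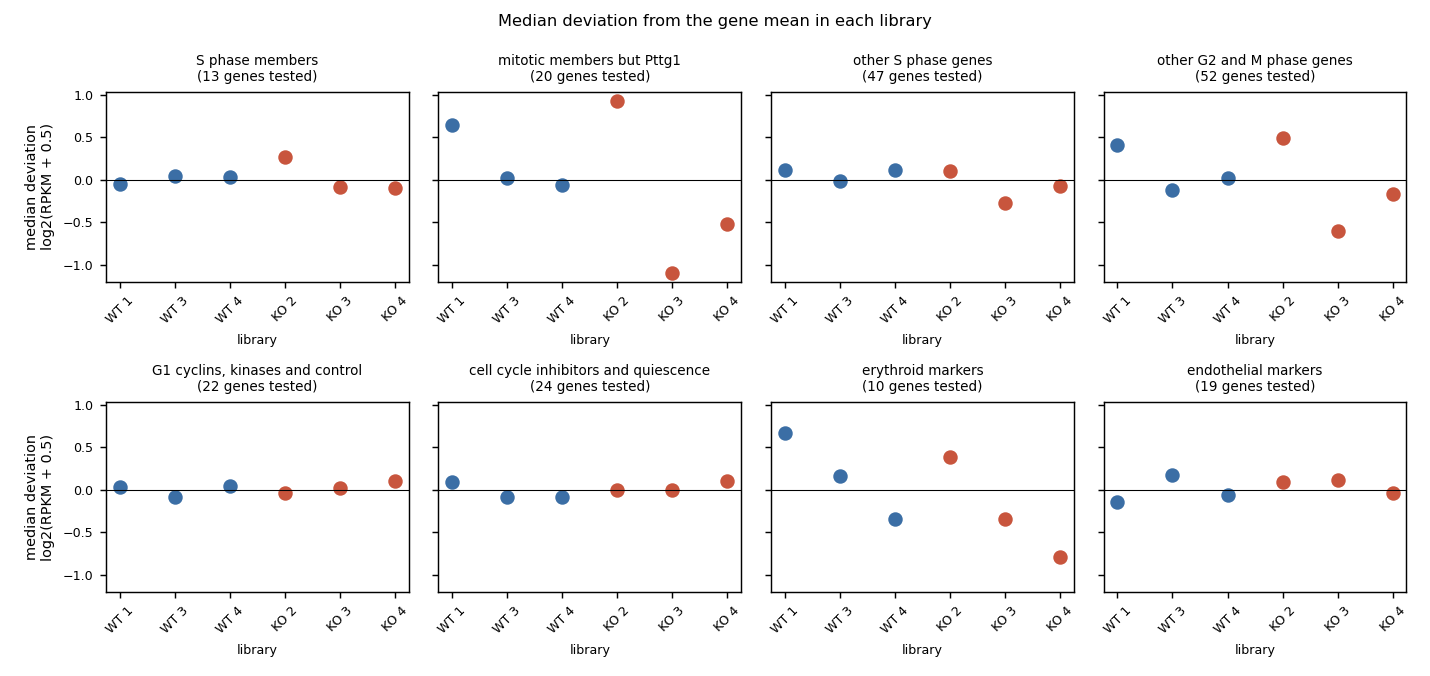
Median deviation from the gene mean (y axis, log2(RPKM + 0.5)) over the tested genes of 8 lists in each library (x axis; blue wild type, red knockout). Mitotic members without Pttg1 reach 0.93 in KO 2 and -1.10 in KO 3, other G2 and M phase genes and erythroid markers are also high in WT 1 and KO 2, and S phase members, G1 genes, inhibitors and endothelial markers stay between -0.14 and 0.27.

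S phase members were more abundant and more even. Of the 15, 13 were tested and 0 were called in limma, with 1 (Mcm3) at an unadjusted p under 0.05, 7 negative and 6 positive fold changes, and a median of -0.02. From the lowest to the highest library, values on the log2(RPKM + 0.5) scale differed by a median of 0.58 in tested S phase members and of 2.16 in mitotic ones, against 0.53 over all genes. Summed levels were 183, 203 and 189 RPKM in wild type and 233, 185 and 188 RPKM in the knockout. KO 2 was highest for 12 of the 15, against 14.2% of all genes, and its ratio to KO 3 had a median of 1.32 and exceeded 2 for 3 of the 15 (Cdc6, Rrm2 and Foxm1).

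Genes of the replicative helicase led by level. Mcm6 was at 37.3, 40.6 and 39.7 RPKM in wild type and at 44.3, 38.3 and 37.6 RPKM in the knockout, all within 1.19-fold (log2 fold change 0.03 ± 0.10 SE, adjusted p = 0.91). Mcm3, another helicase subunit, was at 21.9, 40.6 and 24.9 RPKM and at 44.6, 39.8 and 40.9 RPKM. WT 3 lay at the level of the knockout, above KO 3, and the other wild-type libraries lay below it. It was not called (log2 fold change 0.56 ± 0.20 SE, adjusted p = 0.214), and without WT 3 it was called higher (0.83, adjusted p = 0.0149). Mcm2, Mcm4, Mcm5 and Mcm7, which complete the helicase ring, had log2 fold changes from -0.22 to 0.07, of both signs. Pcna, the sliding clamp of DNA polymerases, was at 24.8, 21.8 and 25.0 RPKM and at 25.5, 22.5 and 21.7 RPKM (log2 fold change -0.04 ± 0.12 SE, adjusted p = 0.888). Cdt1, a licensing factor, ranged from 1.01 RPKM in KO 4 to 3.51 RPKM in KO 2 (log2 fold change -0.44, adjusted p = 0.516). Gmnn, the geminin that blocks Cdt1, stayed between 8.40 and 10.7 RPKM (-0.15, adjusted p = 0.622), and Cdc6, the loader of the helicase, was at 0.586 to 1.48 RPKM.

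The subunits of ribonucleotide reductase, which makes deoxynucleotides, parted. Rrm1, the large subunit, was at 17.8, 19.3 and 19.7 RPKM in wild type and at 21.4, 16.2 and 16.7 RPKM in the knockout (log2 fold change -0.07 ± 0.13 SE, adjusted p = 0.811). Rrm2, the small subunit that is made in S phase, was at 8.59, 4.65 and 4.82 RPKM and at 8.30, 2.91 and 2.44 RPKM. WT 1 and KO 2 were above the other 4 libraries, by up to 3.52-fold, as in the mitotic genes, and the genotypes overlapped (log2 fold change -0.50 ± 0.39 SE, adjusted p = 0.55). Tyms, thymidylate synthase, had a log2 fold change of 0.18 (adjusted p = 0.654). E2f1, a factor that starts S phase, was at 1.12, 1.5 and 1.49 RPKM and at 2.01, 1.63 and 1.82 RPKM. Each knockout library was above each wild-type one, but the log2 fold change of 0.32 ± 0.19 (SE) had an adjusted p of 0.43. Foxm1, the factor of mitotic genes, was at 0.972, 1.0 and 0.401 RPKM and at 1.58, 0.442 and 0.729 RPKM and was not tested.

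Further cell cycle genes, from lists that hold no member, gave 4 calls. Of 63 other S phase genes, 47 were tested, 39 had a negative fold change (median -0.12), and 1 was called. This was Zfp367, a zinc finger gene of S phase, which fell from 12.1, 10.4 and 11.3 RPKM in wild type to 1.75, 1.13 and 2.24 RPKM in the knockout (log2 fold change -2.45 ± 0.21 SE, adjusted p = 0.000367). KO 3 was lowest for 23 of the 47 (48.9%, against 19.4% of all genes), KO 2 and WT 1 were the 2 highest for 11 (23.4%, against 5.67%), and KO 2 was highest for 12 (25.5%, against 14.2%). Of 87 other G2 and M phase genes, 52 were tested, 40 had a negative fold change (median -0.20), 7 had an unadjusted p under 0.05, and 1 was called. Smc4, a condensin subunit gene, fell from 14.7, 8.95 and 8.05 RPKM to 5.50, 3.24 and 4.26 RPKM (log2 fold change -1.17 ± 0.25 SE, adjusted p = 0.0466), with KO 2 below each wild-type library. This list shared the order of the mitotic members, with KO 2 highest for 26 and KO 3 lowest for 36 of its 52 tested genes and median deviations of 0.41, -0.12 and 0.02 in wild type and 0.49, -0.61 and -0.17 in the knockout. A CHR word lay in the promoter windows of 40 of its 63 genes that had a window (63.5%, against 20.2% of all genes). In the 250 bases before the start the share was 42.9%, against 18.3% of all genes. The split seen in the members was less sharp here. E2F words lay in the windows of 14.3% of these G2 and M phase genes, and CHR words in those of 24.0% of the other S phase genes.

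Control genes outside S phase and mitosis gave both calls of higher level. Of 22 tested genes of G1 control, 1 was called: Cdk2, the kinase that drives entry into S phase, rose from 1.68, 1.38 and 0.693 RPKM to 20.8, 17.9 and 17.9 RPKM (log2 fold change 3.51 ± 0.22 SE). Of 24 tested cell cycle inhibitors and quiescence genes, 1 was called: Gas1, a growth arrest gene, rose from 7.56, 5.22 and 6.16 RPKM to 12.9, 9.75 and 11.7 RPKM (log2 fold change 0.82 ± 0.17 SE, adjusted p = 0.0481). Of 12 tested genes of MuvB and its DREAM repressor, 0 were called in limma and 2 had an unadjusted p under 0.05, Lin9 (log2 fold change -0.54, adjusted p = 0.28) and Rbbp4 (0.21, adjusted p = 0.283). Median deviations of these 3 lists lay between -0.09 and 0.10 in each library.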

How the data were processed

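RNA was amplified with SMART-Seq v4 and libraries were made with Nextera XT, per the labels' protocols. Per the submitters' processing notes, the tools were STAR 2.5.2b and Subread, with edgeR and limma, on mm10; settings are not given in the sources used here. The authors deposited normalized values of 23337 genes in 6 libraries, whose unit, RPKM, was taken from the values themselves. For 17683 of the 17683 genes above 0 they were whole multiples of 1 read's worth (tolerance 0.001), which gave reads and depth. A second deposited table holds the authors' log2 fold changes and adjusted p-values, per the file headers, and is named where used. Columns were assigned to a genotype only, since their numbers do not match the labels' replicate numbers. Libraries of a group differed beyond sampling noise, with chi-square values of 36.7 to 129 per degree of freedom.

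Genes that reached 1 RPKM in 3 or more libraries were tested for genotype with limma 3.58.1 (R 4.3.3) on log2(RPKM + 0.5), with a variance trend, Benjamini-Hochberg adjustment and a threshold of 0.05. The fit was tested on simulated data in which each gene varied independently of the others and with the same SD beyond read sampling. The outcome is not given here. That test does not cover genes of unequal spread. Nor does it cover sets of genes that shift together by library, as the mitotic members did. Alternatives were other pseudocounts (0.1 and 1), filters (none, and 5 RPKM in 3 libraries) and scalings, robust variances, library quality weights, voom on recovered reads, leaving out each library, a replicate block, and removal of GC and length trends, the last chosen after seeing the data. The members and lists were chosen with earlier results of these data known. Library values are given for called members, for the 2 most abundant and the member of smallest p in each role, and for the 3 tested members of widest range. In other lists, called genes or the 2 of smallest p are named. Ube2c, Pcna, Plk1, the globin, Klf1 and leukocyte genes, and members given by range were added after their values were seen. List entries matched in 368 of 370 cases, 350 under the same symbol. Coordinates came from RefSeq (GRCm38.p6) and exon overlaps from GENCODE M21.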

Additional observations from a re-analysis of the deposited data

How the results depend on the processing

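Pttg1 was called lower under each of the 17 alternatives (log2 fold change -2.62 to -2.04, adjusted p from 4.61e-05 to 0.0354). It was the 1 member called lower in all of them but the replicate block. The column numbers are shared by both genotypes for 3 and 4 only and do not match the labels' numbers, so the samples share only a number. With the number as a replicate block, 8 members were called lower (Aurkb, Birc5, Ccnb2, Cdca3, Kif11, Nusap1, Pttg1 and Ube2c). Of all 11035 genes, 244 were called lower. This fit rests on WT 3, WT 4, KO 3 and KO 4 alone and leaves few residual degrees of freedom. Its genotype difference makes no use of KO 2 and WT 1, the 2 highest libraries for 20 of the 25 mitotic members. Library quality weights called 1 member higher, Mcm3 (0.73, adjusted p = 0.00226). With these weights 1772 of 11035 genes were called higher and 1881 lower, against 74 and 140 without them. The weights also turned the direction of most members: 8 of 34 had a negative fold change, against 27 without the weights. The median was 0.21 in place of -0.24 (mitotic members 0.34 in place of -0.42, S phase members 0.11 in place of -0.02). Among those that turned were Birc5 (0.08), Ccna2 (0.16) and Rrm2 (0.21). The cause was not tested. Leaving out each library in turn gave 0 to 1 members called higher, the 1 being Mcm3 without WT 3, where 60 of 10874 genes were called higher. It gave 1 member called lower each time, while 32 to 347 of all genes tested were called lower. The summed level of S phase members in KO 2 was 1.26 times that in KO 3, 1.29 without Mcm6 and 1.24 as a median fold. For mitotic members the ratio was 3.32, 3.81 without Pttg1 and 4.26 as a median fold. In the 250 bases before the start alone, 33.3% of mitotic members held a CHR word, against 18.3% of all genes. Members under 1 RPKM rest on few reads.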
